A study of Mus musculus with 6 samples.

Results

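The genes of antigen presentation by major histocompatibility complex (MHC) class II were examined in LSK cells. These mouse bone marrow cells carry Sca-1 and Kit, lack markers of mature lineages, and are enriched in blood stem cells. The 9 genes were H2-Aa, H2-Ab1, H2-Eb1, H2-DMa, H2-DMb1, H2-Oa, H2-Ob, Cd74 and Ciita. Every probe set whose platform annotation gave 1 of these symbols and no other was taken, which made 11 of 22626 probe sets. They covered 7 of the 9 genes, of 12393 genes named on the array. H2-DMb1 and H2-Ob had no such probe set. Arrays of 3 LSK samples from mice labelled Gfi1 knockout were compared with arrays of 3 samples from wild-type mice, numbered 5, 7 and 8 in each group. Gfi1 encodes a transcriptional repressor of blood cell development. The labels give no further allele, age, strain or treatment, and do not say how the knockout was made or whether a sample came from 1 mouse or a pool. The p-values therefore measure the spread between these samples, which may be technical.

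MHC class II molecules display peptides from endosomes to CD4-positive T cells and are made mainly by B cells, dendritic cells and macrophages. H2-Aa with H2-Ab1 encodes the alpha and beta chains of I-A, and H2-Eb1 encodes the beta chain of I-E. Cd74, the invariant chain, occupies the groove until proteases degrade it. The H2-DM molecule then exchanges the remaining fragment for peptide, and H2-O, whose chains H2-Oa and H2-Ob encode, restrains H2-DM. Ciita encodes the coactivator that switches these genes on, and it acts through factors already bound to their promoters.

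In the RefSeq gene order of GRCm38.p6, H2-Oa, H2-DMa, H2-DMb2, H2-DMb1, H2-Ob, H2-Ab1, H2-Aa and H2-Eb1 lie in that order on chromosome 17, while Ciita lies on chromosome 16. The RefSeq promoter table of that build holds 7 promoter windows for 6 of the 9 genes (H2-Aa, H2-Eb1, H2-DMa, H2-DMb1, H2-Oa and H2-Ob), each running from 250 bases before to 50 bases after a transcription start. H2-Ab1, Cd74 and Ciita were not matched. The class II promoter is known for an X box, bound by RFX, followed by a Y box, bound by NF-Y. The letters GCAAC (core letters of the RFX site, in either orientation) followed after 5 to 40 bases by ATTGG (the reverse complement of CCAAT) on the gene's strand were found for 4 of these 6 genes. The same arrangement was present in 1.42% of the 32851 promoter windows in the table. The stretches that hold it are shown 5′ to 3′ on the gene's strand, with GCAAC and ATTGG in capitals, because they are the shared layout through which Ciita is known to act.
H2-Aa: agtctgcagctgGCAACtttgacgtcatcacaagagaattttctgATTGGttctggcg
H2-Eb1: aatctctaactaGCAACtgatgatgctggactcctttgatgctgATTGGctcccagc
H2-Oa: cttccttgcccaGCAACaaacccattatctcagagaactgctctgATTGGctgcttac
H2-Ob: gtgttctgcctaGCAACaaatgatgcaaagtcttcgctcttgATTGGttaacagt

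The H2-Aa stretch is chr17:34287859-34287916 on the minus strand. The stretches of H2-Eb1 (chr17:34305764-34305820), H2-Oa (chr17:34092291-34092348) and H2-Ob (chr17:34238806-34238860) are on the plus strand. The first capital lies 81, 91, 76 and 87 bases before the start in the order shown, and 28, 27, 28 and 25 bases separate the capitals. Counted singly and on both strands, CCAAT was in 37.4% of all windows and in 6 of the 7 windows of these genes, GCAAC was in 35.2% of all windows, and CGTCA (core letters of the X2 box) was in 20.8% of all windows. Among the windows of these genes, CGTCA was found for H2-Aa only. A match of letters is a description and not a binding site.

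The values are MAS5 signals, linear and in arbitrary units, scaled by the authors to the same trimmed mean on every array. The median signal of an array was 286 to 335, and between 67.0% and 74.4% of an array's probe sets exceeded its brightest Bacillus control, which is used here as a level for dim signals and lay at 100.2 to 162. The single Gfi1 probe set showed no loss of signal in the knockout-labelled group (692, 1163 and 1737 on arrays 5, 7 and 8, against 632, 608 and 723). The labels do not say which part of Gfi1 was deleted, and a probe set outside that part would check nothing. The group is called knockout-labelled for this reason.

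MHC class II genes were measured in both groups, and none of the probe sets tested differed between them beyond the spread between arrays. Testing used limma on the log2(signal + 16) scale for the brightest 60% of probe sets by mean, 13575 in all, and 8 of the 11 class II probe sets passed this filter, covering 6 genes. Of these 8, 0 were called higher and 0 lower at a limma adjusted p under 0.05, and 0 had an unadjusted p under 0.05. Over all probe sets tested 3.63% were called, 1.44% higher and 2.19% lower, and 19.6% had an unadjusted p under 0.05. With 8 probe sets, a count of 0 lies near that background of calls. The calls over all probe sets numbered 196 higher and 297 lower. A fit that blocked on sample number made 320 and 479 calls, 5.89% of all, and again 0 of the 8. Leaving out 1 array gave 34 (without knockout-labelled 8) to 266 (without wild-type 8) higher calls and 90 (without wild-type 7) to 282 (without wild-type 8) lower calls. The median difference over the 8 class II probe sets was -0.13 on the log2 scale, against -0.01 over all probe sets tested. None of the 8 separated the groups, where 24.0% of all probe sets tested did, and 2.34% did so with a change of at least 2-fold.

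H2-Aa, the I-A alpha chain, was described by 2 probe sets. The brighter of them, 1435290_x_at, read 1145, 582 and 538 on knockout-labelled arrays 5, 7 and 8. Its wild-type signals were 555 (array 5), 959 (array 7) and 2739 (array 8). Wild-type 8 was the highest array, knockout-labelled 5 was the next, and the remaining 4, from both groups, ran from 538 to 959. The mean signal was 755 ± 339 against 1418 ± 1162 (SD, n = 3 each). On the log2 scale the difference was -0.67 ± 0.44 (SE), with a 95% interval from -1.62 to 0.29 (limma adjusted p = 0.452). Without wild-type 8 the difference was -0.04. The suffix _x_at marks a probe set that may also bind related transcripts. The dimmer probe set, 1452431_s_at, had signals of 363, 326 and 206 against 333, 385 and 507, again highest on wild-type 8 and with overlapping groups, and differed by -0.45 ± 0.28 (limma adjusted p = 0.417).

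H2-Ab1, the I-A beta chain, had its brightest probe set at 1188, 1115 and 1120 on the knockout-labelled arrays and at 517, 799 and 2093 on the wild-type arrays. The 3 knockout-labelled arrays were nearly equal and lay inside the wild-type range, of which wild-type 8 was the top. The means were 1141 ± 40.7 and 1137 ± 840 (SD, n = 3 each), and the difference was 0.25 ± 0.37 (SE), with an interval from -0.53 to 1.04 (limma adjusted p = 0.769). Without wild-type 8 it was 0.81 (limma adjusted p = 0.0753), the lowest adjusted p that any class II probe set reached under any alternative. A second probe set, 1451721_a_at, read 434, 321 and 265 against 218, 225 and 557, a difference of 0.13 ± 0.35 (limma adjusted p = 0.886), and 0.56 without wild-type 8. The remaining one, 1425477_x_at, stayed at 18.5 to 51.5, below the Bacillus level of every array, and was not tested.

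H2-Eb1, the I-E beta chain, read 1426, 731 and 522 on the knockout-labelled arrays and 999, 813 and 2041 on the wild-type arrays. Wild-type 8 was again highest, followed by knockout-labelled 5, and the groups overlapped. The means of 893 ± 473 and 1284 ± 662 (SD, n = 3 each) differed by -0.53 ± 0.36 (SE) on the log2 scale, with an interval from -1.30 to 0.25 (limma adjusted p = 0.466), and by -0.14 without wild-type 8. Its partner chain H2-Ea, a transcribed pseudogene in the RefSeq table and known to be non-functional in some inbred strains, had 3 probe sets with signals of 10.0 to 116, below the Bacillus level on all 6 arrays.

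**Figure D1:**
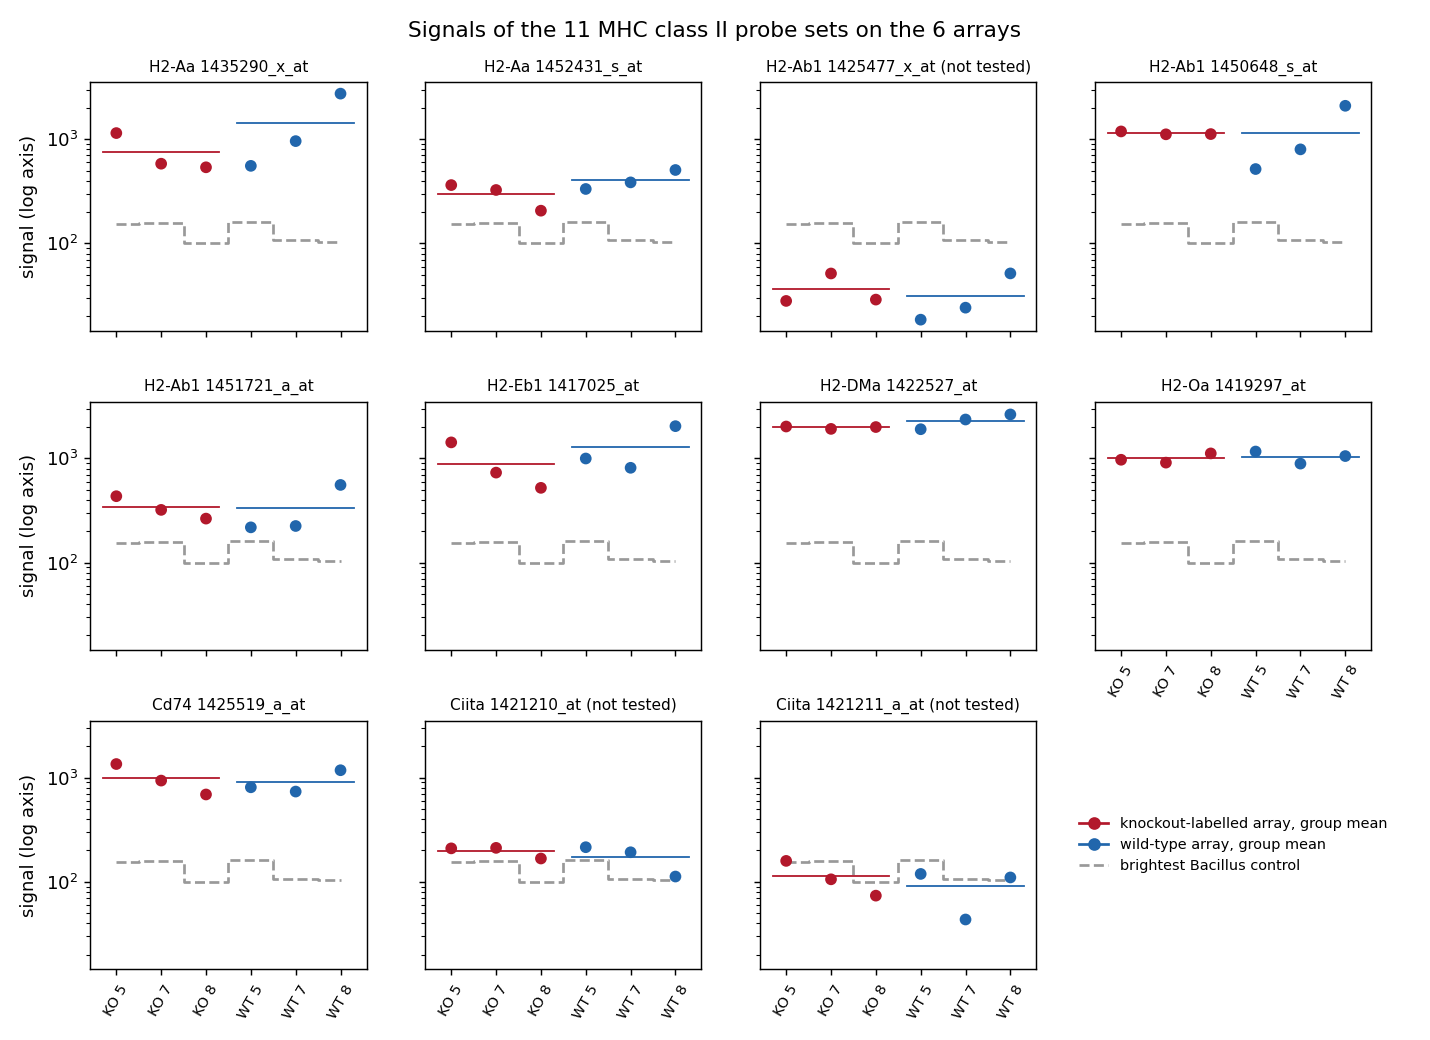
Signals of the 11 class II probe sets (vertical log axis, arbitrary units) on the knockout-labelled (KO, red) and wild-type (WT, blue) arrays 5, 7 and 8, with group means as lines and the brightest Bacillus control of each array as a dashed line. Wild-type 8 is the highest point for both probe sets of H2-Aa, both tested probe sets of H2-Ab1, H2-Eb1 and H2-DMa, while H2-Oa stays between 892 and 1165.

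Among the genes of peptide loading, H2-DMa and H2-Oa varied less. H2-DMa, a chain of the loading factor H2-DM, read 2025, 1922 and 2002 on the knockout-labelled arrays and 1907, 2364 and 2645 on the wild-type arrays. The groups overlapped only through wild-type 5, and the means of 1983 ± 54.3 and 2306 ± 372 (SD, n = 3 each) differed by -0.20 ± 0.18 (SE), with an interval from -0.59 to 0.18 (limma adjusted p = 0.587). H2-Oa, the alpha chain of H2-O, read 971, 912 and 1118 against 1165, 892 and 1054. No array stood apart for it, and the difference was -0.05 ± 0.20 with an interval from -0.47 to 0.38 (limma adjusted p = 0.930). The intervals of these 2 genes leave out a 2-fold change in either direction, while those of H2-Aa, H2-Ab1 and H2-Eb1 do not for their brightest probe sets.

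H2-DMb2, a neighbouring H2-DM beta chain gene outside the 9, read 923, 859 and 655 against 854, 765 and 791. Its difference was 0.00 ± 0.21 (SE; limma adjusted p = 0.997). Of 3 probe sets whose annotation joins a class II symbol to another, 1 named H2-Ob and Gm20506. It read 219, 301 and 237 on the knockout-labelled arrays and 415, 738 and 368 on the wild-type arrays, without overlap, and stood at -0.91 ± 0.29 (limma adjusted p = 0.104, blocked on sample number 0.0501), which did not pass. Because it has 2 symbols, its signal is credited to neither gene. The other 2 named H2-DMb1 together with H2-DMb2. One of them lay at or below the Bacillus level on 4 arrays. The other, 1449580_s_at, varied widely, from 130.1 (knockout-labelled 7) to 1111 (wild-type 8), with overlapping groups. It stood at -0.85 ± 0.46 (limma adjusted p = 0.341).

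Cd74, the invariant chain, read 1351, 938 and 690 on the knockout-labelled arrays and 809, 735 and 1179 on the wild-type arrays. Here knockout-labelled 5 was highest and wild-type 8 next. The means of 993 ± 334 and 908 ± 238 (SD, n = 3 each) differed by 0.10 ± 0.26 (SE), with an interval from -0.46 to 0.67 (limma adjusted p = 0.880), and by -0.14 without knockout-labelled 5.

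Ciita, the coactivator, was dim on every array. Its probe set 1421210_at read 210, 212 and 168 against 215, 192 and 112, above the Bacillus level of each array and closest to it on wild-type 8 (112 against 104). Wild-type 8, the array with the most H2-Aa, H2-Ab1 and H2-Eb1 signal, had the lowest signal of this probe set. The other Ciita probe set read 159, 106 and 73.7 against 119, 43.5 and 110.2 and was at or below the Bacillus level on 4 arrays. Neither passed the brightness filter. In a fit without that filter their differences were 0.20 ± 0.35 and 0.30 ± 0.44 (SE; limma adjusted p = 0.875 and 0.840). At such signals a difference in Ciita could not be resolved.

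**Figure D2:**
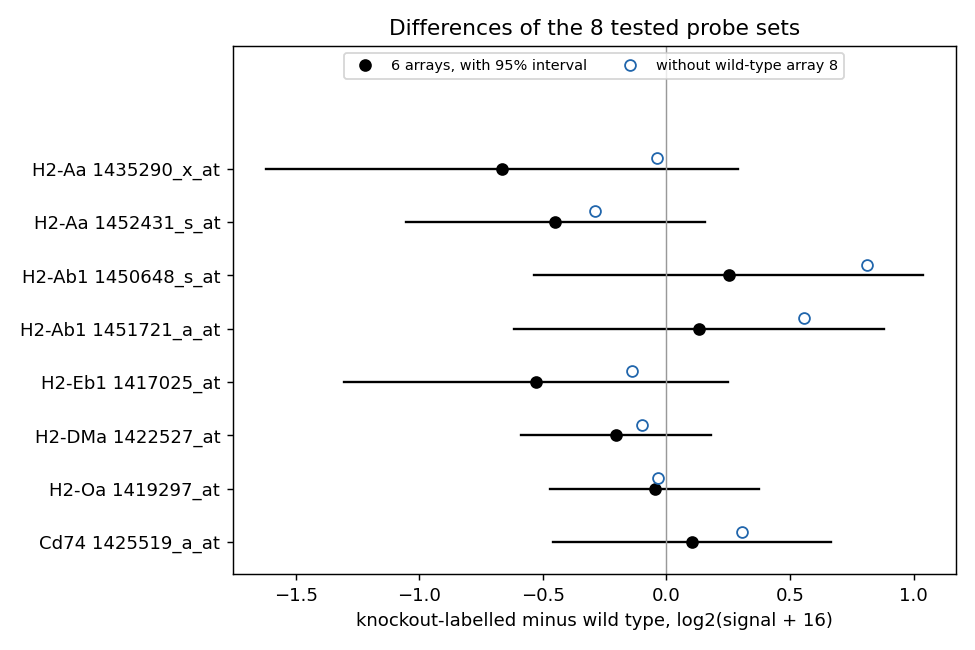
Difference of each tested probe set (horizontal axis, knockout-labelled minus wild type in log2(signal + 16) units), with the estimate from 6 arrays as a filled point, its 95% interval as a line, and the estimate without wild-type array 8 as an open point. All 8 intervals include 0, and the open points of H2-Aa 1435290_x_at (-0.04) and H2-Ab1 1450648_s_at (0.81) lie farthest from their filled points.

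For H2-Aa, H2-Ab1 and H2-Eb1 the larger contrast was between arrays of the same group. Wild-type 8 was the highest of the 6 arrays for 6 of the 8 tested class II probe sets, and for 14.3% of all probe sets tested. Against the mean log2 level of wild-type 5 and 7 it stood 3.69-fold higher for H2-Aa (1435290_x_at), 3.20-fold for H2-Ab1 (1450648_s_at), 2.41-fold for the second H2-Ab1 probe set and 2.24-fold for H2-Eb1. Larger excesses on wild-type 8 were measured for 0.177%, 0.309%, 0.744% and 0.950% of the probe sets tested. The dimmer H2-Aa probe set, 1452431_s_at, had an excess of only 1.40-fold, and 9.71% of the probe sets tested had a larger one. The excess was 1.52-fold for Cd74, 1.24-fold for H2-DMa and 1.03-fold for H2-Oa. The standard deviation among the wild-type arrays was 1.15 (log2) for H2-Aa and 1.02 for H2-Ab1 in their brightest probe sets. It was 0.30 for the dimmer H2-Aa probe set and 0.73 for the second H2-Ab1 probe set, against a median of 0.24 over all probe sets tested. Among the knockout-labelled arrays the brightest probe sets had 0.72 for H2-Eb1 and 0.59 for H2-Aa, yet 0.05 for H2-Ab1, where the median was 0.23. The dimmer H2-Aa and the second H2-Ab1 probe set had 0.41 and 0.34 there. These are descriptions of single arrays, chosen after their values were seen.

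**Figure D3:**
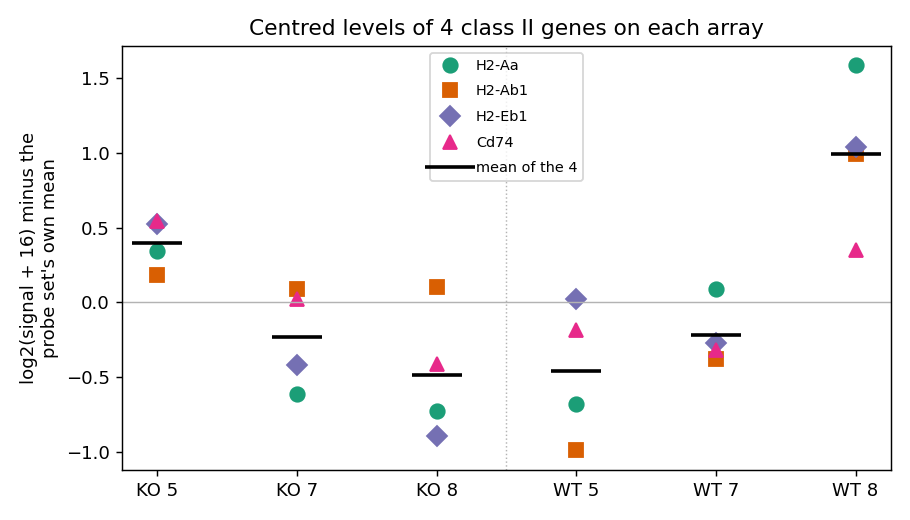
Level of the brightest probe sets of H2-Aa, H2-Ab1, H2-Eb1 and Cd74 on each array (vertical axis, log2(signal + 16) minus the probe set's own mean over 6 arrays), with the mean of the 4 as a black bar. The mean lies at 0.99 on wild-type 8 and at 0.40 on knockout-labelled 5, and between -0.48 and -0.22 on the remaining 4 arrays, where H2-Ab1 lies above H2-Aa on knockout-labelled 7 and 8 and below it on wild-type 5 and 7.

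The brightest probe sets of the 2 chains of I-A did not keep the same ratio in the groups, while other pairs of their probe sets overlapped. The log2 ratio of H2-Aa to H2-Ab1, from their brightest probe sets, was -0.05, -0.92 and -1.04 on knockout-labelled arrays 5, 7 and 8 and 0.10, 0.26 and 0.39 on wild-type arrays 5, 7 and 8. The groups did not overlap, and the means differed by -0.92. A ratio of probe sets has no meaning as a level, but its shift between arrays shows unequal change of these probe sets. The ratio of H2-Eb1 to Cd74 also separated the groups, at 0.08, -0.35 and -0.39 against 0.30, 0.14 and 0.78. These were 2 of the 6 pairs among H2-Aa, H2-Ab1, H2-Eb1 and Cd74, and 4 of 13 pairs when all their tested probe sets were used. A log ratio to H2-Aa separated the groups for 1.98% of the probe sets tested, and a log ratio to H2-Eb1 for 3.76%. Most probe sets lack the excess of H2-Aa and H2-Eb1 on wild-type 8, so these shares are not a like measure for class II pairs. For the second H2-Ab1 probe set the ratio of H2-Aa overlapped (1.37, 0.83 and 0.98 against 1.29, 2.02 and 2.27), as it did for both pairs with the dimmer H2-Aa probe set. The pairs were looked at after the single values were seen, and no test was made of them.

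The genes whose centred profile over the 6 arrays came nearest to the mean of H2-Aa, H2-Ab1, H2-Eb1 and Cd74 were Hsph1, Klf10, Pmm1, Cldn13 and D2hgdh, among 8233 genes. Their root mean square differences from it were 0.16 to 0.19 on the log2 scale, while the 4 genes themselves lay 0.28 to 0.36 from their own mean. Hsph1, a heat shock protein of the HSP110 family, read 7534, 5799 and 4426 on the knockout-labelled arrays and 4588, 6188 and 10254 on the wild-type arrays. Cldn13, a claudin, read 768, 585 and 558 against 500.3, 634 and 1800. Both had wild-type 8 as the highest array, followed by knockout-labelled 5, and so did Klf10, Pmm1 and D2hgdh. These genes were picked for their likeness to that mean profile, so the shared order follows from the choice. Their small differences are the smallest among 8233 genes and cannot be set against those of the 4 class II genes.

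The factors that bind class II promoters or are recruited by Ciita were measured with 9 tested genes of 11 listed, of which 0 were called (limma, adjusted p under 0.05), against 3.63% of all probe sets. Their median difference was -0.21. Rfx5, the DNA-binding RFX subunit, read 2043, 1937 and 1765 against 2124, 2490 and 2040 and differed by -0.21 ± 0.17 (SE; limma adjusted p = 0.564). Rfxank stood at -0.36 ± 0.23 (0.425) and the NF-Y subunit Nfyb at -0.44 ± 0.18 (0.187). A dimmer Nfyb probe set, 1419266_at, lay on the other side of 0, at 0.16 ± 0.27 (limma adjusted p = 0.805). The acetyltransferase genes Crebbp and Kat2b stood at -0.95 ± 0.28 and -0.59 ± 0.19 (limma adjusted p = 0.0797 and 0.103), with groups that did not overlap, and neither passed. Rfxap, whose protein completes the RFX complex, was too dim to be tested.

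Genes between interferon gamma and Ciita gave 0 calls among 10 tested of 12 listed, against 3.63% of all probe sets, so that a count of 0 lies near the background, and their median was -0.07. Irf1, a factor that activates Ciita, read 2215, 1792 and 1513 against 2444, 2718 and 3322. The groups did not overlap, and the difference of -0.62 ± 0.20 (SE) missed the threshold (limma adjusted p = 0.0989). The receptor kinase genes Jak1 and Jak2 stood at -0.47 ± 0.14 and -0.55 ± 0.19 (0.0890 and 0.136), and Irf8 and Spi1, transcription factors of antigen-presenting cells, at 0.08 ± 0.18 and 0.29 ± 0.21 (0.856 and 0.494).

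Among 12 tested genes of endosomal processing, which degrade the invariant chain and antigen or regulate that step, 2 rose and 0 fell. Over all probe sets tested 1.44% rose and 2.19% fell. Of the 12 genes 11 lay above 0, and their median difference was 0.44, against -0.01 over all probe sets tested. Cst7, which encodes the cysteine protease inhibitor cystatin F, read 3593, 3841 and 4306 against 1916, 1666 and 1622, and rose by 1.17 ± 0.17 (SE; limma adjusted p = 0.00235). Ctsz, a cysteine cathepsin, read 3764, 5721 and 7348 against 2305, 2234 and 2956, and rose by 1.12 ± 0.22 (limma adjusted p = 0.0166). Every knockout-labelled array lay above every wild-type array for both of these probe sets. The call of this Ctsz probe set was lost without knockout-labelled 7 or 8 or wild-type 7 (limma adjusted p = 0.0620, 0.0996 and 0.0737), without the brightness filter (0.0594) and with eBayes without trend (0.0649), while Cst7 passed under every alternative run. The dimmer Ctsz probe set 1417869_s_at overlapped, at 1178, 2045 and 2659 against 1184, 846 and 974. It stood at 0.90 ± 0.26 (limma adjusted p = 0.0819) and did not pass, while 1417870_x_at rose by 0.76 ± 0.19 (0.0446). Ifi30, the thiol reductase that unfolds antigens, stood at 0.92 ± 0.25 (0.0577) and the aspartic protease gene Ctsd at 0.54 ± 0.19 (0.136), and both passed when blocked on sample number (0.0349 and 0.0482). Ctsd was chosen after its values were seen. Ctsf, a cysteine cathepsin and the 1 gene of the list below 0, was dim at 175, 182 and 166 against 249, 415 and 382, without overlap, and stood at -0.91 ± 0.29 (limma adjusted p = 0.0996). Ctss, the main invariant chain protease of antigen-presenting cells, read 10755, 7766 and 8785 against 8145, 4624 and 6800, a difference of 0.51 ± 0.20 (limma adjusted p = 0.185). Lgmn, an endopeptidase that starts invariant chain cleavage, stood at 0.08 ± 0.36 (0.937).

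In the MHC class I pathway 1 of 16 tested genes rose and 0 fell, against 1.44% and 2.19% of all probe sets, with a median of -0.09. The gene was Calr, a chaperone of the loading complex, at 11673, 9741 and 11954 against 6457, 5667 and 6193, a rise of 0.86 ± 0.15 (SE; limma adjusted p = 0.00673) that was lost without knockout-labelled 8 (0.0568) and with eBayes without trend (0.0541). B2m, the class I light chain, stood at -0.37 ± 0.15, the heavy chains H2-D1 and H2-K1 at -0.32 ± 0.13 and -0.36 ± 0.18, and the peptide transporter Tap1 at -0.38 ± 0.17 (limma adjusted p = 0.187, 0.190, 0.285 and 0.235). The groups overlapped for H2-K1 but not for B2m, H2-D1 and Tap1, where 24.0% of all probe sets tested had no overlap. The H2-D1 and H2-K1 probe sets carry the suffix _x_at and may also bind related transcripts. Of 3 tested costimulatory genes 0 were called, against 3.63% of all probe sets. Cd86 read 334, 352 and 275 against 681, 494 and 512 and stood at -0.78 ± 0.24 (0.0942).

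**Figure D4:**
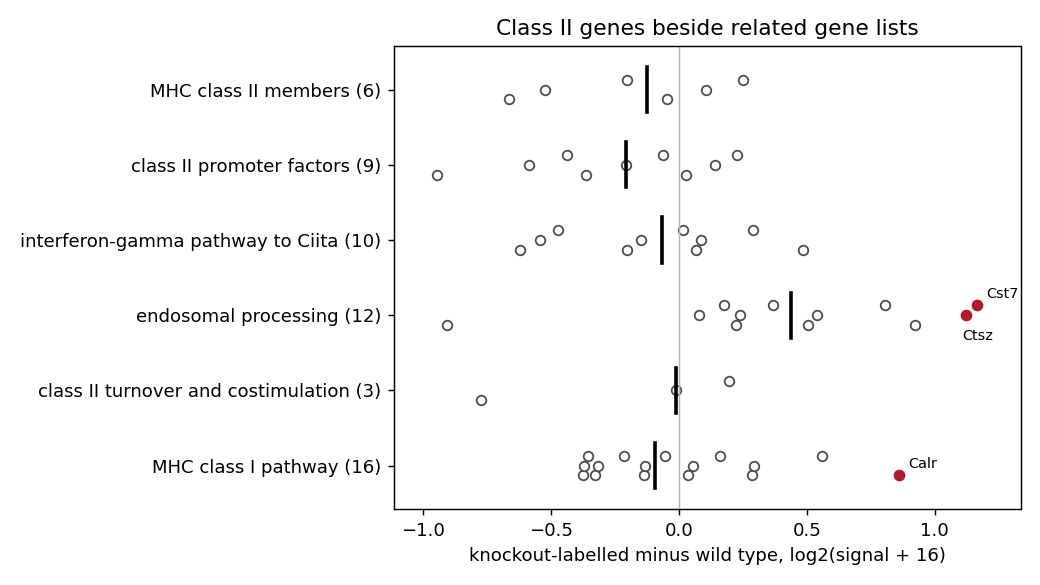
Differences of the tested genes of 6 lists (horizontal axis, knockout-labelled minus wild type in log2(signal + 16) units, brightest tested probe set of each gene), with filled points for genes at a limma adjusted p under 0.05, open points for the rest, and a bar at each list's median. The class II genes hold 0 filled points, and Cst7 and Ctsz are the filled points of the endosomal list.

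In bulk samples fewer cells of a type and less RNA per cell cannot be told apart, so markers of cells that carry class II are set beside these values. The background for each marker list is the share called over all probe sets tested, 1.44% higher and 2.19% lower. Of the B cell markers 0 of 9 tested genes were called, and all 9 lay below 0. Blnk, an adaptor of the B cell receptor, stood at -0.86 ± 0.33 (SE; limma adjusted p = 0.165) and was called lower when blocked on sample number (0.0473) and without wild-type 8 (0.0480), and the kinase gene Blk, at -0.88 ± 0.31 (0.132), was called lower without wild-type 8 (0.01999). Pax5, the factor that defines B cells, was below the Bacillus level on every array, and the summed signal of the 15 markers with a probe set was 3198 to 4304 on the knockout-labelled arrays and 4159 to 6025 on the wild-type arrays. Wild-type 8 had the lowest sum of its group. Of 5 tested dendritic cell markers 1 rose (Clec10a, 1.09 ± 0.24 SE, limma adjusted p = 0.0233) and 1 fell (Flt3, -1.19 ± 0.19, limma adjusted p = 0.00515), and Flt3 is also a gene of early progenitors. The call of Clec10a held without wild-type 5 and was lost without any other array (0.0514 to 0.0772) and without the brightness filter (0.0694). Ccr7 and Cd7 of that list were below the Bacillus level on every array. The sum of its 12 markers was 4768 to 5136 against 6362 to 8960, but that gap lay in Flt3. Without Flt3 the sum was 2894, 2739 and 2260 against 2943, 2835 and 2386, so that the groups overlapped and array 8 was the lowest in both.

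Of 13 tested macrophage and monocyte markers 2 rose, Ccr2 by 2.08 ± 0.29 and Csf1r by 0.69 ± 0.17 (SE; limma adjusted p = 0.00193 and 0.0443), and 0 fell. Among all probe sets tested 1.44% rose and 2.19% fell. Ms4a7 stood at 1.17 ± 0.35 (0.0869) and was a further call when blocked on sample number (0.0399). A dimmer Ccr2 probe set, 1421188_at, stood at 1.11 ± 0.35 without overlap and did not pass (limma adjusted p = 0.0996). The value of Csf1r is that of its brightest probe set. Among the fits that omit an array, only the one lacking wild-type 7 kept its call (0.0415, otherwise 0.0564 to 0.153), and each of the 3 other scalings of the arrays, eBayes without trend and testing without the brightness filter ended its call (0.0528 to 0.131). Its dimmer probe sets 1419873_s_at and 1423593_a_at lay at 1.13 ± 0.22 and 1.11 ± 0.21 (limma adjusted p = 0.0158 and 0.0133) and passed under 11 of 15 and 14 of 16 alternatives, with adjusted p up to 0.0822 and 0.0660 in the others; both failed without knockout-labelled 7 and without knockout-labelled 8. The summed signal of the 15 with a probe set was 23976, 30924 and 26966 on knockout-labelled arrays 5, 7 and 8, and 13500 (wild-type 5), 18122 (wild-type 7) and 24371 (wild-type 8) in the other group. Wild-type 8 thus had the highest sum of its group and was the highest wild-type array for 9 of the 13 tested markers, as it was for H2-Aa, H2-Ab1 and H2-Eb1, but not for the called Ccr2 and Csf1r, for Ms4a7 or for Lyz2. The share of all probe sets tested with wild-type 8 as the highest wild-type array was not computed. For the tested markers the median excess of wild-type 8 over wild-type 5 and 7 was 0.68 (log2). Knockout-labelled 5, the highest array of its group for H2-Aa, H2-Ab1, H2-Eb1, H2-DMa and Cd74, had the lowest macrophage sum of its group. Its lead was slight for H2-DMa and the brightest H2-Ab1 probe set. Much of the spread of the macrophage sums within each group lay in 1 marker, Vcam1, at 3036, 8544 and 5917 against 1324, 3555 and 8160.

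Of 7 tested plasma cell markers 2 rose and 0 fell, against 1.44% and 2.19% of all probe sets. Those that rose were the immunoglobulin constant regions Ighg3 and Igha (limma adjusted p = 0.00115 and 0.00991). The call of Igha was lost without knockout-labelled 8 (0.0509), without the brightness filter (0.0610) and with eBayes without trend (0.0546), and Sdc1 was called lower when blocked on sample number (0.0444). The summed signal of the 8 with a probe set was 105868, 39303 and 55230 on the knockout-labelled arrays against 36605, 31156 and 38274. The gap between these sums lay mostly in Igha, at 60974, 11539 and 22521 against 2775, 6418 and 5394. Jchain overlapped, at 22783, 12273 and 14729 against 20234, 11748 and 16532. Knockout-labelled 5 was the highest array of its group for all 7 tested plasma cell markers and for 8 of 9 tested neutrophil markers. It was so for 7 of the 8 tested class II probe sets, where H2-Aa and H2-Ab1 count with 2 each. For H2-DMa the lead was slight (2025 against 2002). The share of all probe sets with this order was not computed.

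Of 9 tested neutrophil markers 1 rose (Mmp8) and 5 fell (Ngp, Camp, Ltf, S100a8 and S100a9), against 1.44% and 2.19% of all probe sets, and 7 fell when blocked on sample number. Their calls held with any 1 array left out for Ngp, Camp, Ltf and Mmp8, but not for S100a8 or S100a9 (up to 0.208 and 0.103, both without knockout-labelled 8). These 2 also missed the threshold with eBayes without trend (0.134 and 0.0722) and without the brightness filter (0.143 and 0.0761), and S100a8 did so under the 3 other scalings (0.0547 to 0.0561). Ltf lay at 0.050009 without the brightness filter, just outside the threshold. The summed signal of the 10 with a probe set was 7268 to 14748 against 20654 to 41865, with array 8 lowest and array 5 highest in both groups. Of 2 tested T cell markers 0 were called, against 3.63% of all probe sets. Cd4, Cd8b1 and Trat1 were below the Bacillus level on every array, and the sum of 10 markers was 1465 to 1772 against 2239 to 2659.

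Of 8 tested markers of stem and progenitor cells 0 rose and 2 fell, Hlf by 1.26 ± 0.19 and Kit by 0.71 ± 0.17 (SE; limma adjusted p = 0.00268 and 0.0381). Across all probe sets tested 1.44% rose and 2.19% fell. Of the 11 markers listed 8 had a probe set, and Ly6a, which encodes Sca-1, was not among them. Kit, by which the cells were sorted, read 3512, 4669 and 4496 on the knockout-labelled arrays and 5871, 7052 and 7774 on the wild-type arrays, without overlap. With 1 array left out its call held only without wild-type 5 (0.0327, otherwise 0.0710 to 0.132), and it was lost without the brightness filter (0.0789), with eBayes without trend (0.118) and with median centring (0.103), while Hlf passed under every alternative run. A dimmer Kit probe set, 1415900_a_at, stood at -0.57 ± 0.28, also without overlap, and was not called (limma adjusted p = 0.286). The part of any of these cell types in the class II signals was not tested.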

How the data were processed

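The authors' deposited intensity values were used, 1 linear MAS5 signal per probe set and array, per the submitters' processing notes. The MAS5 version is not given in the sources used here, nor are its settings. Per the labels' protocols, cRNA was made from 10 ng of RNA by a double amplification. Each array was already scaled (2% trimmed mean 1000.33 to 1000.37). AFFX controls (64 probe sets) were not tested. Probe sets were named only where the platform annotation gave 1 symbol (20380 of 22626). Log2(signal + 16) was fitted with limma 3.58.1 in R 4.3.3 (lmFit, eBayes with trend, no further normalization) over all 6 arrays, for the brightest 60% of probe sets by the mean of that value. P-values are two-sided and Benjamini-Hochberg adjusted over 13575 probe sets. The script was tested on simulated data. A gene of a list was represented by its brightest tested probe set. Precision is limited by the number of arrays.

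The class II genes, the gene lists and the tests were chosen with earlier results of these data known. The text names every class II probe set, up to 4 genes of each pathway list and 3 of each marker list with the smallest p, a set of further pathway genes whatever their values, and the 5 genes of most similar profile; some of these are given only in counts or sums, as are the T cell markers.

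Sample numbers 5, 7 and 8 come from the labels. Over the probe sets tested, arrays that share a number deviated together from their group means (r = 0.159, 0.168 and 0.238), so the numbers were taken to pair the samples, and a fit with the number as a block was an alternative. The others were pseudocounts of 1 and 64, no brightness filter, a filter at 40%, eBayes without trend, median centring, quantile and cyclic loess normalization, omission of _x_at and _s_at probe sets, and leaving out each array.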

Additional observations from a re-analysis of the deposited data

How the results depend on the processing

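No class II probe set was called under any of the alternatives run, and the 8 tested ones kept adjusted p-values of 0.0753 to 0.988 over 123 refits. The sign changed in 9 of these refits, for H2-Ab1, H2-Oa and Cd74, and H2-Aa, H2-Eb1 and H2-DMa kept theirs. The replicate block left the class II calls at 0 higher and 0 lower and changed no class II call. The count of calls over all probe sets depended more on the settings. Against 196 higher and 297 lower, it was 320 and 479 with the replicate block, which uses the pairing of sample numbers, 69 and 119 without the brightness filter, 57 and 124 with eBayes without trend, and 193 lower with median centring. With 1 array left out the higher calls ran from 34 to 266 and the lower calls from 90 to 282; fewer arrays enter those fits, and beyond that the cause was not tested. Ciita, the dimmest H2-Ab1 probe set and the H2-Ea probe sets lay too near or below the Bacillus level for a difference to be resolved.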
